A study of Mus musculus with 4 samples.

Results

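Expression of 7 cholesterol synthesis genes was examined by RNA-seq in 4 stable lines of 3T3-L1 cells on day 8 of adipogenic differentiation. The genes are Hmgcs1, Idi1, Fdft1, Sqle, Lss and Cyp51, which encode enzymes of the pathway, and Insig1, which encodes a sterol-sensing regulator. They were taken by their place in the pathway, with no measured value in the rule, although earlier results of these data were known. Each was found in 1 of the 13110 deposited rows through its RefSeq identifiers, so that 7 of 13085 genes are described. None of the 7 encodes a lipoprotein receptor, and genes of LDL uptake were therefore examined as a separate list.

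3T3-L1 is a murine preadipocyte line that turns into fat-storing cells under adipogenic hormones. Cells were transfected with the empty FLAG vector (FLAG), FLAG-CACUL1, a hairpin against luciferase (sh-Luc) or a hairpin against CACUL1 (sh-CACUL1), and resistant colonies were selected with G418 for the FLAG vectors and with hygromycin B for the hairpin vectors. All 4 lines were induced with dexamethasone (1 μg/mL), IBMX (0.5 mM), rosiglitazone (5 μM) and insulin (5 μg/mL), and insulin alone was renewed thereafter. CACUL1 is a cullin-family protein that the study examined as a repressor of the adipogenic receptor PPARγ. Each line gave 1 sample, so no difference below has a replicate check and no test was run. Whether a value belongs to the construct or to the selected line cannot be told apart.

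Cholesterol is built from acetyl-CoA. HMG-CoA synthase and HMG-CoA reductase lead to mevalonate, which is turned into isoprenoid units, joined into squalene, closed into lanosterol and trimmed to cholesterol. Transcription of nearly all these enzymes is driven by SREBP-2, a membrane-bound factor that its escort protein SCAP carries to the Golgi when sterols are scarce. INSIG proteins hold SCAP in the endoplasmic reticulum when sterols are plentiful, and Insig1 is itself an SREBP target. Adipocytes hold much of the body's free cholesterol in their lipid droplets and draw on both synthesis and lipoprotein uptake.

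The deposited values are FPKM, which are fragment numbers scaled by transcript length and by the mapped fragments of the library, so that genes may be compared by level within a sample. Fragment numbers are not stated, but steps in the low FPKM values gave rough estimates between 14190000 and 24050000 fragments per sample, with sh-Luc the deepest. At these depths the lowest value of a member rested on about 273 fragments. Cacul1 had 9.61 FPKM in FLAG and 11.8 FPKM in FLAG-CACUL1, and 10.2 FPKM in sh-Luc and 5.39 FPKM in sh-CACUL1. Its log2 changes were 0.27 and -0.82, both under 2-fold, and the second was -0.36 after quantile normalization and -0.40 after median-of-ratios scaling. Whether fragments of the construct itself were counted is not given in the sources used here. A change below is the log2 ratio of FPKM + 1 to the control with the same vector, and a gene was called at 2-fold, the cut-off of the study's methods. Over all genes the median change was 0.09 for FLAG-CACUL1 but -0.30 for sh-CACUL1, so sh-CACUL1 values were also read relative to that median.

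The promoter windows of 3 members are shown because they span the range of the results: Insig1 differed most between the lines, Lss was among the most reduced enzymes under FLAG-CACUL1, and Hmgcs1 served as the reference enzyme. The windows run from 250 bases before to 50 bases after the RefSeq start on GRCm38.p6, written 5′ to 3′ on the gene's strand. Insig1 lies at chr5:28071162-28071461, Lss at chr10:76531355-76531654 and Hmgcs1 at chr13:119690101-119690400, all on the plus strand. Capitals mark matches on either strand to the sterol regulatory element core TCACNCCAC, the bases that SREBP proteins recognise, and to its shorter form CACCCCAC. They also mark the E-box form TCACGTGA and the CCAAT box, which reads ATTGG on the other strand.
Insig1: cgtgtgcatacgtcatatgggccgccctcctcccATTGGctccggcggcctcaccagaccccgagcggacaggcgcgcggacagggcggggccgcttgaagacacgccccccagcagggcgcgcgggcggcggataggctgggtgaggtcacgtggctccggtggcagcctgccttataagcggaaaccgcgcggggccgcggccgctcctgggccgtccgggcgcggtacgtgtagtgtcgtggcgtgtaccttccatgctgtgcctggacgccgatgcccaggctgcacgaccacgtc
Lss: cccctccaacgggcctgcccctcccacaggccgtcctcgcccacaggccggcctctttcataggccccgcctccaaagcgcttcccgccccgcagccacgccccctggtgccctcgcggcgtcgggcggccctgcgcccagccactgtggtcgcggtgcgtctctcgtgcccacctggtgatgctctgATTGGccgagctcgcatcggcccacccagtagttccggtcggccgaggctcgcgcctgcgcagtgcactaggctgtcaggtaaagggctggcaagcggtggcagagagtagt
Hmgcs1: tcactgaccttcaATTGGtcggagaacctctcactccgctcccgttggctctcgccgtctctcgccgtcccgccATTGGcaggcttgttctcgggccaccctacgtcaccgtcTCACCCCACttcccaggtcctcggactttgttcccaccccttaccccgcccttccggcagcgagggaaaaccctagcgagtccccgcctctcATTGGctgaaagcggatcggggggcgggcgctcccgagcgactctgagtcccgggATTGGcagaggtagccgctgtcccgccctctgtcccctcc

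Of the 7 members, 5 had a window in the RefSeq table, namely Hmgcs1, Idi1, Lss, Cyp51 and Insig1. Hmgcs1 held the sterol regulatory element core, with its first base at position -137 from the start, where 1.24% of all 32851 windows held a match. The shorter form overlapped it at position -136, and 2.87% of all windows held that form. No exact match to either was found in the windows of the other 4. None of the 5 held the E-box form TCACGTGA, which 0.974% of windows did. Other E-box forms were not searched for, and the shorter CACGTG stands in the Insig1 window in lower case. Each of the 5 held at least 1 CCAAT box and at least 1 GC box (GGGCGG), against 37.4% and 35.7% of all windows. Hmgcs1 had 4 CCAAT boxes, Idi1 had 2 and the other 3 had 1 each. A match is a description of these letters and does not show binding.

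The 6 enzymes and Insig1 were expressed in every line, between 6.36 and 131 FPKM. Gene positions below are those of GENCODE M21 on GRCm38. The summed level of the 7 was 320 FPKM in FLAG, 121 in FLAG-CACUL1, 242 with sh-Luc and 343 with sh-CACUL1. Hmgcs1 (NM_001291439 and NM_145942, chr13:119690379-119708260, plus strand), the cytosolic HMG-CoA synthase that opens the pathway, had 61.9 FPKM in FLAG and 35.4 in FLAG-CACUL1, against 57.9 in sh-Luc and 71.4 in sh-CACUL1. Fdft1 (NM_010191, chr14:63145150-63179578, minus strand), squalene synthase, which commits isoprenoids to sterols, had 23.0, 13.3, 23.5 and 26.7 FPKM in the same order. For both genes FLAG-CACUL1 was low and the other 3 lines lay close together.

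Idi1 (NM_145360, chr13:8885501-8892451, plus strand), which interconverts the isoprenoid building blocks, had 13.1 FPKM in FLAG, 6.36 in FLAG-CACUL1, 28.8 with sh-Luc and 34.3 with sh-CACUL1. Cyp51 (NM_020010, chr5:4081145-4104746, minus strand), the lanosterol demethylase, had 13.7, 8.33, 18.7 and 32.9 FPKM. In these genes both hairpin lines lay above both FLAG lines, and within each vector pair the order of the lines was the same.

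Sqle (NM_009270, chr15:59315077-59331192, plus strand), squalene epoxidase, a rate-limiting oxygenase of the late pathway, had 91.9 FPKM in FLAG, 29.0 in FLAG-CACUL1, 41.3 with sh-Luc and 27.9 with sh-CACUL1. It was the single member in which FLAG stood above all other lines, and the single member that was lowest in sh-CACUL1. Lss (NM_146006, chr10:76531588-76557138, plus strand), lanosterol synthase, which closes the ring system, had 18.6, 6.53, 20.4 and 18.5 FPKM, with FLAG-CACUL1 far below 3 near-equal lines.

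Insig1 (NM_153526, chr5:28071363-28078662, plus strand) had 97.8 FPKM in FLAG, 21.7 in FLAG-CACUL1, 51.1 with sh-Luc and 131 with sh-CACUL1. It was the highest of the 7 genes in FLAG and in sh-CACUL1, whereas Hmgcs1 was the highest in FLAG-CACUL1 and in sh-Luc. FLAG-CACUL1 had the lowest value of the 4 lines for 6 of the 7 genes, where 16.7% of all genes were lowest in that line. The exception was Sqle, at 29.0 FPKM in FLAG-CACUL1 and 27.9 in sh-CACUL1. With quantile normalization, or with median-of-ratios scaling, all 7 were lowest in FLAG-CACUL1, and the share of all genes rose as well, to 22.1% and 21.3%. The highest value fell in sh-CACUL1 for 5 genes, in FLAG for Sqle and in sh-Luc for Lss.

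**Figure D1:**
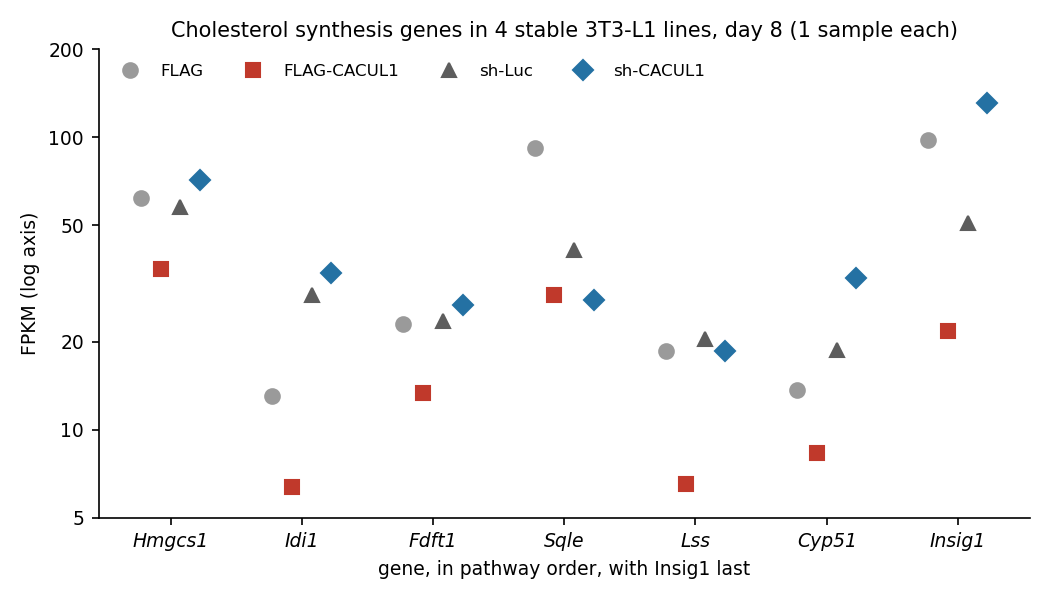
FPKM (log axis) of the 7 genes in the 4 lines, with 1 point per sample. The FLAG-CACUL1 squares are the lowest point for every gene but Sqle, where sh-CACUL1 is slightly lower at 27.9 FPKM.

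The comparison of FLAG-CACUL1 with FLAG asked how the pathway stood when CACUL1 was overexpressed. All 7 genes were lower in FLAG-CACUL1, by any amount, as were 41.3% of all genes. Of the 7, Insig1 fell most against FLAG, with a log2 change of -2.12, which is 4.50-fold lower in FPKM. Sqle fell with a log2 change of -1.63 and Lss with -1.38. These 3 of 7 passed the 2-fold cut-off downward and none passed it upward, where 7.22% of all genes were called lower and 7.51% higher. Among the 9563 genes that reached 1 FPKM in each sample, which include the 7, 7.25% were called lower.

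The other 4 enzymes lay under the cut-off. Idi1 had a log2 change of -0.94, Hmgcs1 of -0.79, Fdft1 of -0.75 and Cyp51 of -0.66. The median over the 7 was -0.94, against 0.09 over all genes. The counting error estimated from the fragments was at most ±0.21 on this scale at 95%, for Idi1, and does not include variation between cultures. Set against sh-Luc in place of FLAG, all 7 were again lower, as were 60.1% of all genes, with a median of -1.08. The size for single genes depended on the control. Against sh-Luc, Idi1 had -2.02 and Lss -1.51, while Insig1 had -1.19 and Sqle -0.49, so that Insig1 no longer differed most.

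The comparison of sh-CACUL1 with sh-Luc asked the same for CACUL1 depletion. Insig1 was 2.57-fold higher in FPKM in sh-CACUL1, a log2 change of 1.35. It was the only 1 of the 7 called higher, where 4.94% of all genes were. None of the 7 was called lower, where 16.4% of all genes were. Cyp51 had a log2 change of 0.78, Hmgcs1 of 0.30, Idi1 of 0.25 and Fdft1 of 0.18. Lss had -0.13 and Sqle -0.55.

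The median over the 7 was 0.25, against -0.30 over all genes. Of the 7, 5 were higher in sh-CACUL1 by any amount, as were 31.3% of all genes. The same 5, Insig1, Cyp51, Hmgcs1, Idi1 and Fdft1, lay below FLAG in the FLAG-CACUL1 line and above sh-Luc in the sh-CACUL1 line. As deposited, 16.1% of all genes held that pattern. After quantile normalization or median-of-ratios scaling, 6 of the 7 lay above sh-Luc in sh-CACUL1, where 51.4% and 49.0% of all genes lay below it. Relative to the median of all genes the log2 changes in sh-CACUL1 were 1.65 for Insig1, 1.08 for Cyp51, 0.60 for Hmgcs1, 0.55 for Idi1, 0.48 for Fdft1, 0.17 for Lss and -0.25 for Sqle. Lss thus changed sign with the scaling and Sqle did not. Against FLAG in place of sh-Luc, Insig1 had only 0.42, while Idi1 had 1.33, Cyp51 1.21 and Sqle -1.69.

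Calls over all genes shifted with the scaling as well. As deposited, 647 genes were called higher and 2141 lower in sh-CACUL1, and median-of-ratios scaling gave 1231 and 975. In FLAG-CACUL1 the numbers were 983 and 945 as deposited and 755 and 1169 after that scaling.

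**Figure D2:**
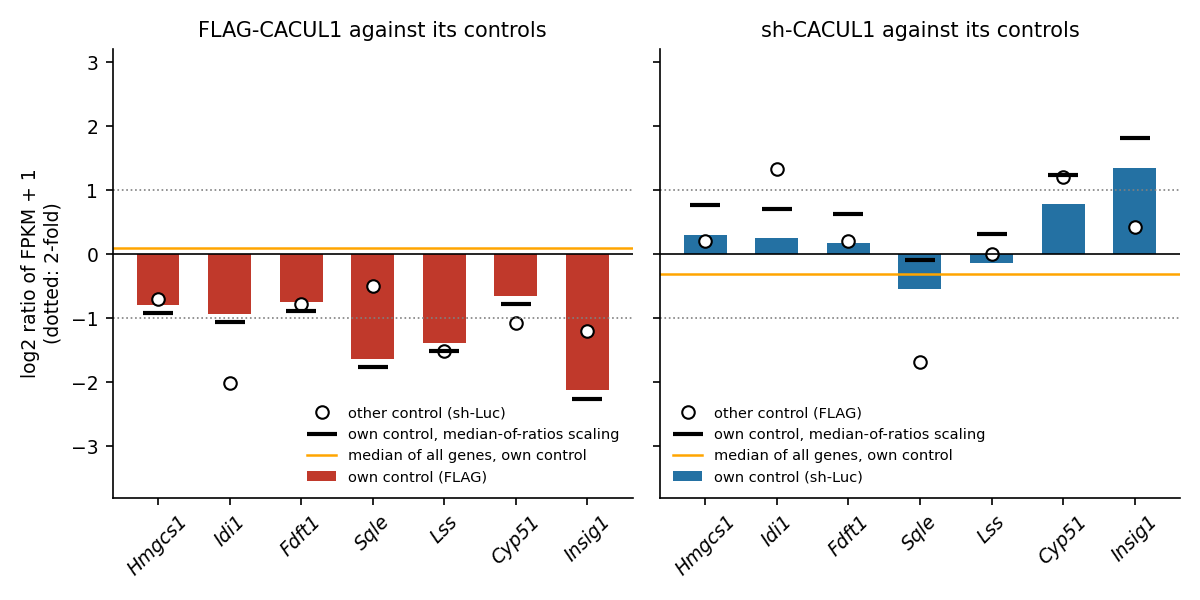
Log2 ratio of FPKM + 1 of each gene in FLAG-CACUL1 (left) and sh-CACUL1 (right), with bars for the control of the same vector, circles for the other control, dashes for median-of-ratios scaling, an orange line for the median of all genes and dotted lines at 2-fold. All bars and circles on the left lie below 0, whereas on the right only the Insig1 bar passes 2-fold, at 1.35.

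Levels relative to Hmgcs1 within a sample do not change when all FPKM values of that sample are multiplied by 1 factor, as in median-of-ratios scaling, although quantile normalization can change them. They showed which genes kept step. Fdft1 stood at 0.372 of Hmgcs1 in FLAG, 0.376 in FLAG-CACUL1, 0.406 with sh-Luc and 0.374 with sh-CACUL1, a range of only 1.09-fold. The mRNAs of squalene synthase and HMG-CoA synthase thus had nearly the same proportion in all 4 lines. The ratio of Lss to Hmgcs1 ranged 1.91-fold and that of Cyp51 2.08-fold.

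Sqle departed most. Its ratio to Hmgcs1 was 1.48 in FLAG, 0.819 in FLAG-CACUL1, 0.713 with sh-Luc and 0.390 with sh-CACUL1, a 3.80-fold range. It ranked behind Insig1 alone in FLAG (rank 2 of 7) and was at rank 5 in sh-CACUL1. Insig1 had ratios of 1.58, 0.614, 0.882 and 1.84, a 3.00-fold range, with FLAG and sh-CACUL1 high and the other lines low. Idi1 had 0.211, 0.180, 0.497 and 0.481, so that it separated the FLAG lines from the hairpin lines and differed little within either pair.

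**Figure D3:**
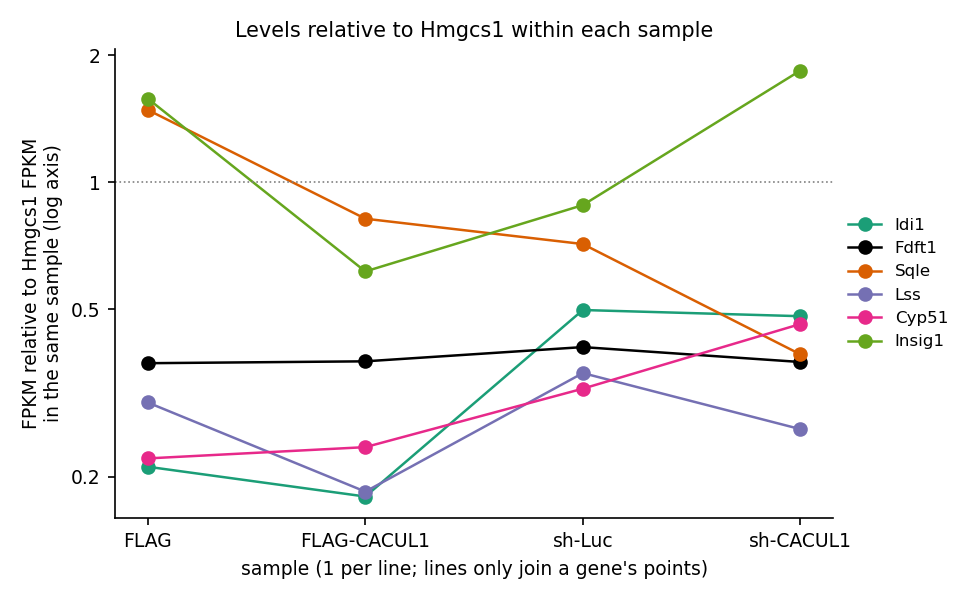
FPKM of 6 genes divided by that of Hmgcs1 in the same sample (log axis), with 1 point per line and connecting lines only to join a gene's points. Fdft1 is nearly flat between 0.372 and 0.406, Sqle spans 0.390 to 1.48, and Insig1 is highest in FLAG and sh-CACUL1.

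The controls, which carry no CACUL1 construct, also differed from each other for some members. Between FLAG and sh-Luc, Sqle was higher in FLAG by 1.14 on the log2 scale and Idi1 had -1.08. These 2 of 7 passed 2-fold, as did 21.0% of all genes. Insig1 had 0.92, Cyp51 -0.43, Lss -0.13, Hmgcs1 0.10 and Fdft1 -0.03. For Hmgcs1, Fdft1 and Lss the controls were thus close, and each was lower in FLAG-CACUL1 than in either control.

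Cell type markers are given beside these results. All 10 markers listed for mature adipocytes (Adipoq, Fabp4, Plin1, Cidec, Cfd, Lpl, Pparg, Cebpa, Slc2a4 and Lipe) were called lower in FLAG-CACUL1 and higher in sh-CACUL1, with medians of -4.06 and 2.56. Over all genes 7.22% were called lower in FLAG-CACUL1 and 4.94% higher in sh-CACUL1. Fabp4 had the highest level and Cfd the largest change in each of these comparisons. Against sh-Luc, FLAG-CACUL1 had 6 of the 10 called lower, 2 above 0 and a median of -1.59, where 4.87% of all genes were called lower. Against FLAG, sh-CACUL1 had 2 called higher, 2 lower and a median of 0.004, where 7.45% and 15.4% of all genes were called. The 10 markers summed to 8546 FPKM in FLAG, 891 in FLAG-CACUL1, 1722 with sh-Luc and 17720 with sh-CACUL1. Between the controls 9 of the 10 were at least 2-fold higher in FLAG, where 21.0% of all genes differed 2-fold in either direction. The median was 2.29 for the markers and -0.03 for the 7 cholesterol genes. In a bulk sample, fewer adipocytes and less RNA per adipocyte cannot be told apart, and the part of differentiation in the changes of the 7 genes was not tested. Preadipocyte and fibroblast markers summed to 8150, 9373, 5314 and 1090 FPKM over the 9 of 10 that were analysed, but they did not move together. In FLAG-CACUL1 4 were called higher and 1 lower, against 7.51% and 7.22% of all genes. In sh-CACUL1 2 were called higher and 6 lower, against 4.94% and 16.4% of all genes. Col3a1 had the highest level and Ly6a the largest change in FLAG-CACUL1. Pdgfra and Pdgfrb were called higher in FLAG-CACUL1 and lower in sh-CACUL1. Thy1 was called higher in both, with 0.663 FPKM in sh-Luc and 34.3 with sh-CACUL1, and Dlk1 was called lower in FLAG-CACUL1 and higher in sh-CACUL1, where it had 21.2 FPKM against 0.220. The cycling-cell list of 6 summed to 27.7, 21.8, 79.8 and 32.9 FPKM, with Birc5 highest. Its largest changes were in Ccna2 (-0.99 in FLAG-CACUL1) and Ccnb1 (-1.37 in sh-CACUL1). None of the 6 was called in FLAG-CACUL1, and 4 were called lower in sh-CACUL1, against 16.4% of all genes. Quantile normalization and median-of-ratios scaling each gave 2 called lower in FLAG-CACUL1, against 7.80% and 8.93%. In sh-CACUL1 they gave none, against 8.28% and 7.45%. With the other control 5 were called lower in FLAG-CACUL1 and none in sh-CACUL1, against 4.87% and 15.4%. Markers of macrophages (2 of 5 analysed), endothelium (Pecam1, 1 of 4) and muscle (Acta1, 1 of 4) summed to at most 16.8, 0.301 and 0.679 FPKM. The first of these was nearly all Cd68 in FLAG, at 16.2 FPKM.

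The rest of the pathway showed whether the 7 genes stood alone. Of 16 further enzymes, 15 lay below FLAG in FLAG-CACUL1, as did 41.3% of all genes. Of the 16, 7 were called lower and none higher, against 7.22% and 7.51% of all genes. The median log2 change of the 16 was -0.79. FLAG-CACUL1 was the lowest line for 13 of the 16, also after quantile normalization or median-of-ratios scaling. The share of all genes lowest in that line was 16.7%, and 22.1% and 21.3% after these scalings. Pmvk, phosphomevalonate kinase, had the largest change, -1.72, with 19.4 FPKM in FLAG, 5.19 in FLAG-CACUL1, 19.0 with sh-Luc and 37.6 with sh-CACUL1. Ebp, the sterol isomerase, was the single exception, at 23.8 FPKM in FLAG and 40.4 in FLAG-CACUL1.

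In sh-CACUL1, 4 of the 16 enzymes were called higher and none lower, against 4.94% and 16.4% of all genes. Those 4 were Acat2, which condenses acetyl-CoA ahead of Hmgcs1 and had the largest change, 1.48, together with Nsdhl, Ebp and Dhcr7. Nsdhl and Ebp are named because the count is small. The median of the 16 was 0.78, and 9 lay above 0, as did 31.3% of all genes. After quantile normalization 14 lay above 0 and 2 below, with a median of 0.98, where 51.4% of all genes were below. After median-of-ratios scaling it was 13 and 3, with a median of 1.17, where 49.0% of all genes were below. Quantile normalization gave 8 and median-of-ratios scaling 9 called higher, against 9.0% and 9.41% of all genes. Dhcr7, the reductase of the last steps, was the 1 enzyme called in opposite directions in both comparisons, with 31.2 FPKM in FLAG, 9.77 in FLAG-CACUL1, 15.3 with sh-Luc and 34.5 with sh-CACUL1. Fdps, farnesyl diphosphate synthase, had the highest level, from 45.8 FPKM in FLAG-CACUL1 to 208 in sh-CACUL1.

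Of 14 regulators, 4 were called lower and none higher in FLAG-CACUL1, against 7.22% and 7.51% of all genes. In sh-CACUL1 1 was called higher and 2 lower, against 4.94% and 16.4% of all genes. The medians of the 14 were -0.35 and -0.44. Against sh-Luc in place of FLAG, none of the 14 was called lower in FLAG-CACUL1, where 4.87% of all genes were. Against that control 1 was called higher, Nr1h3 with a log2 change of 1.31, where 5.04% of all genes were. The median was then -0.22, so the lower calls in FLAG-CACUL1 depended on the control. In sh-CACUL1 either scaling gave 2 called higher and none lower, with 7 of 14 on each side of 0. With quantile and median-of-ratios scaling 9.0% and 9.41% of all genes were called higher there, and 8.28% and 7.45% lower. Nr1h3, the oxysterol receptor LXRα, was called in both comparisons and changed most in each. It had 14.5 FPKM in FLAG, 4.04 in FLAG-CACUL1, 1.03 with sh-Luc and 42.2 with sh-CACUL1, log2 changes of -1.62 and 4.41. Aup1, a ubiquitin-system protein of the endoplasmic reticulum that acts with INSIG1, had the highest level, between 64.2 and 81.4 FPKM.

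The SREBP genes themselves are given after their values were seen, since they drive the pathway. Srebf2, which encodes SREBP-2, had 42.0 FPKM in FLAG, 25.7 in FLAG-CACUL1, 47.4 with sh-Luc and 20.8 with sh-CACUL1. It was thus lower in both CACUL1 lines than in their controls, with log2 changes of -0.69 and -1.15. Srebf1, which encodes the SREBP-1 forms active in fatty acid synthesis, had 31.0, 12.2, 24.2 and 46.9 FPKM, log2 changes of -1.27 and 0.92. Insig2, the second INSIG protein, had 58.6, 20.7, 15.3 and 13.7 FPKM, so that it was high in FLAG alone and did not share the sh-CACUL1 peak of Insig1.

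Of 10 genes listed for LDL uptake and the release of its cholesterol, 9 were analysed. In FLAG-CACUL1 3 were called lower and 1 higher, against 7.22% and 7.51% of all genes. In sh-CACUL1 2 were called lower and none higher, against 16.4% and 4.94% of all genes. The median of the 9 was -0.73 in both. Against sh-Luc in place of FLAG, the median in FLAG-CACUL1 was 0.28. Of the 9, 8 were below sh-Luc in sh-CACUL1, as were 68.7% of all genes. After quantile normalization or median-of-ratios scaling it was 7 of 9, against 51.4% and 49.0% of all genes. Lrp1, a large endocytic receptor of the LDL receptor family, was called in both comparisons, with 143 FPKM in FLAG, 328 in FLAG-CACUL1, 145 with sh-Luc and 23.7 with sh-CACUL1. Npc2, the lysosomal sterol carrier, had the highest level, between 266 and 462 FPKM. Vldlr, the VLDL receptor, is named after its values were seen, with 28.1, 8.05, 2.46 and 0.822 FPKM.

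**Figure D4:**
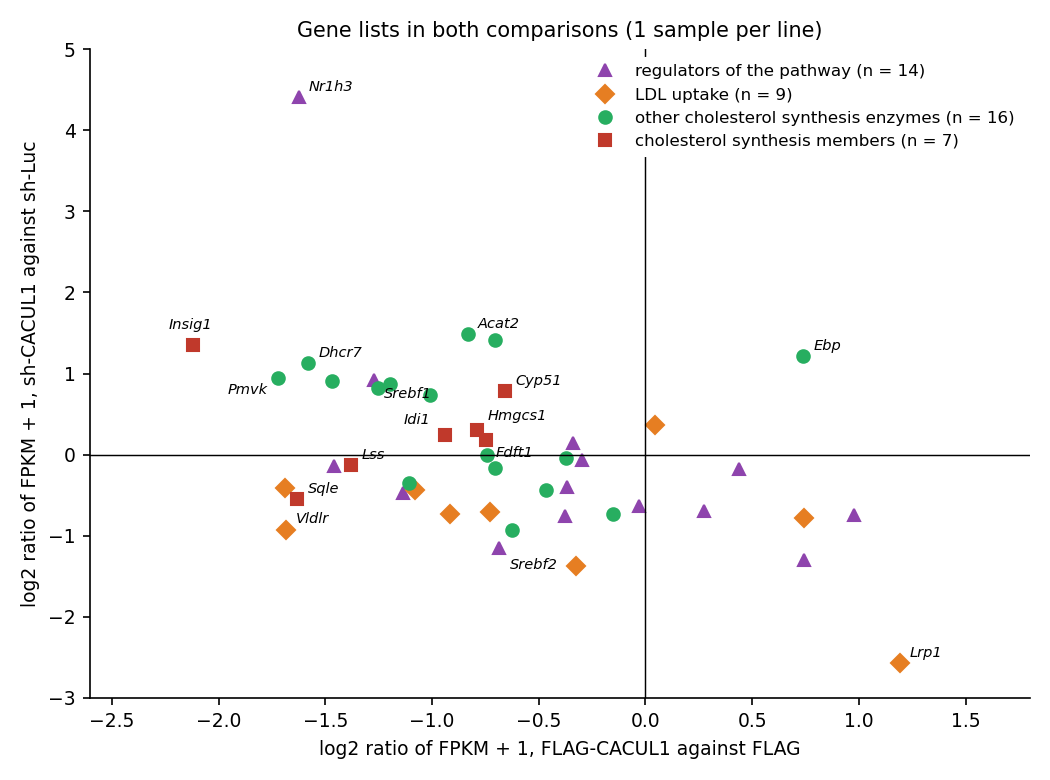
Log2 ratio of FPKM + 1 in FLAG-CACUL1 against FLAG (horizontal) and in sh-CACUL1 against sh-Luc (vertical), with 1 point per gene for the 7 members, 16 other enzymes, 14 regulators and 9 LDL uptake genes. Values are as deposited, without further scaling. Nearly all enzymes lie left of 0, spread above and below 0 on the vertical axis, and Nr1h3 (4.41) and Lrp1 (-2.57) stand apart.

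The genes with the pattern closest to the mean of the 7 members were sought among 8963 other genes with at least 5 FPKM in any line, by Euclidean distance between log2(FPKM + 1) values centred on each gene's mean. This compares only 4 points per gene and is a description. The nearest were Tecr (distance 0.188), Dot1l (0.224), Irs2 (0.228), Pomt1 (0.232) and Rad52 (0.237). Tecr, a reductase of very-long-chain fatty acid elongation, had 152 FPKM in FLAG, 68.7 in FLAG-CACUL1, 126 with sh-Luc and 180 with sh-CACUL1. The best-placed of the 16 enzymes was Mvd, mevalonate diphosphate decarboxylase, at rank 67 (0.472). The members themselves lay between 0.351 (Lss) and 1.44 (Sqle) from their mean. All 5 named genes were closer, but they were picked as the nearest of 8963. Their distances therefore cannot show how far the members share a pattern.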

How the data were processed

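RNA-seq of 4 stable 3T3-L1 lines was analysed, with 1 sample each. Libraries were prepared and sequenced by a company, and the authors deposited FPKM values for 13110 rows of RefSeq transcripts per sample on build mm10, per the labels. The aligner, the FPKM program, the scaling between samples and any filter are not given in the sources used here.

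Rows were joined to symbols through the RefSeq table of GENCODE M21 on GRCm38, the same assembly, and summed per symbol (196 rows had no symbol, 8 had several), giving 13085 genes. No filter was applied. Changes are log2(FPKM + 1) ratios, which understate those of low genes, called at 2-fold. A background share is the percent of all genes meeting the same rule. Fragment values were estimated from evenly spaced low values of FPKM times length in single-transcript rows of at least 3000 bases, of which 63.3% to 68.5% lay within 0.15 of a whole number. Promoter windows came from the RefSeq table for GRCm38.p6, without chromosome 18.

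Named genes were all 7 members and, from each list, genes called in both comparisons, the gene highest in mean FPKM and the gene with the largest change in either comparison. Of the genes this rule picks, 2 are not reported here. Members and lists were chosen with earlier results of these data known. There were 9 alternatives. The code was tested on simulated data. Python 3.11.15, numpy 2.4.6, pandas 2.3.3 and matplotlib 3.10.9 were used.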

Additional observations from a re-analysis of the deposited data

How the results depend on the processing

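No paired analysis was possible because each line has 1 sample, and for the same reason no replicate could be left out. Against FLAG, the median change of the 7 genes in FLAG-CACUL1 lay between -1.06 and -0.94 with other pseudocounts, filters, scalings or row choices, and it was -1.08 against the other control. The count of 3 called genes became 4 with a lower or no pseudocount, either scaling or the other control. Idi1 joined in each of these, and with the other control Cyp51 joined as well and Sqle dropped out. It was 7 at 1.5-fold and 2 at 3-fold. Over all genes the share called lower went from 7.22% to 10.5% and 12.1% with the lower and no pseudocount, 7.80% and 8.93% with quantile and median-of-ratios scaling, 4.87% with the other control, 14.3% at 1.5-fold and 2.90% at 3-fold. In sh-CACUL1 the median of 0.25 became 0.58 with quantile normalization and 0.71 with median-of-ratios scaling. The count of 1 became 2 with either scaling, 3 with the other control (2 higher, 1 lower), 2 at 1.5-fold and 0 at 3-fold. Over all genes the share called higher went from 4.94% to 9.0% and 9.41% with the scalings, 7.45% with the other control (15.4% lower), 10.1% at 1.5-fold and 1.93% at 3-fold. All 7 genes kept their sign in FLAG-CACUL1 under the 6 alternatives applied to single genes, and in sh-CACUL1 all but Lss did, which ranged from -0.14 to 0.32. The cause of these shifts was not tested. With 1 sample per line, depth limits the counting error alone.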

Other observations

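Enzymes that use the intermediates of the pathway or store its product were also listed. Over 12 such genes the log2 changes had a median of -0.24 for FLAG-CACUL1 and of -0.09 for sh-CACUL1. The second median was 0.22 after quantile normalization and 0.29 after median-of-ratios scaling. Soat1, which esterifies cholesterol for storage, changed most in sh-CACUL1 with -1.49, at 20.6 FPKM in sh-Luc and 6.67 FPKM with sh-CACUL1. It was 55.9 FPKM in FLAG and 38.9 in FLAG-CACUL1, so the FLAG lines lay above the hairpin lines. Fnta, a subunit of protein prenyltransferases, had the highest mean level, between 25.1 and 52.9 FPKM.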
